A study of Ananas comosus with 48 samples.

Results

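The first day after injection was compared with the first sampling in the shoot apex of pineapple (Ananas comosus) grown in the field, where mature microRNAs (miRs) had been counted by small RNA sequencing. The comparison took the 12 libraries that the sample labels place at these 2 samplings, of 48 libraries at 8 samplings, so that 6 libraries stood on each side. On each side 3 libraries came from control plants given 10 ml of water in the centre of the plant, and 3 from plants given 50 mg of ethephon in 10 ml. Ethephon breaks down to ethylene and is used to make pineapple flower. The 4 groups were thus water at the first sampling, water at day 1, ethephon at the first sampling and ethephon at day 1. All plants were of the same cultivar (MD1) in the same commercial field, all were injected, and each library pooled the apices of 3 plants from 1 of 3 field replications. Leaf primordia remained on the apex, so the tissue was not meristem alone, and in such bulk samples fewer cells of a type and less RNA per cell cannot be told apart. Harvest for the first sampling began soon after injection, but processing of those apices lasted until the early afternoon, which the labels give as 6 hours, whereas apices of day 1 were processed by noon. Hours of handling, day in the field and time after injection therefore cannot be told apart in this comparison.

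Plant miRs are cut from a hairpin precursor as a duplex, and 1 strand of it, the guide, is loaded into ARGONAUTE, where it pairs with a messenger RNA and directs its cleavage. The suffixes 5p and 3p name the arm of the hairpin from which a strand came, and the strand that is less often loaded usually has the lower count. In shoot apices the conserved families are known for keeping transcription factors in bounds. In Arabidopsis, miR166 acts on the HD-ZIP factors of leaf polarity and the meristem, miR164 on the NAC factors of organ boundaries, miR160 and miR167 on auxin response factors, miR171 on GRAS factors of the meristem, miR172 on APETALA2-like factors, and miR156 on the SPL factors of phase change.

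Of 190 listed mature sequences, 112 had a count in the 12 libraries and 57 had enough counts to be tested. The sequences on which the results turn are given here as the deposited table lists them, 5′ to 3′, with the seed (bases 2 to 8) in capitals. The first 5 are those that passed a test between the samplings or between the treatments, together with miR160a-5p, which differs from miR160d-5p at 1 position and shares its seed, so that reads of the pair could be split by the counting.
miR166a-5p: aAUGAGGUuugauccaagauc
miR164a-3p: cAUGUGCCcaucuucuccacc
miR167a-5p: uGAAGCUGccagcaugaucuga
miR160d-5p: uGCCUGGCucccugaaugcca
miR160a-5p: uGCCUGGCucccuguaugcca
The next 2 are shown as the guide strand of the miR166a hairpin and as the most abundant listed sequence.
miR166a-3p: uCUCGGACcaggcuucauucc
miR159c-3p: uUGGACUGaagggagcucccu
A sequence shared by several miR genes is called here by the first of its names. Thus miR160d-5p also stands for miR160e-5p and miR160f-5p, miR167a-5p for miR167b-5p, and miR159c-3p for miR319a-3p and miR319d-3p. Among the 57 tested sequences 9 seeds were shared, the largest group being the 4 sequences miR171a-3p, miR171b-3p, miR171d-3p and miR171f-3p.

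Counts in listed miRs ranged from 39324 to 86017 per library (median 63494), which was 0.315% to 0.585% of the sequencing tags of a library. Levels are given in CPM, that is counts in listed miRs scaled to a common total after TMM adjustment (trimmed mean of M-values, which corrects for a few sequences taking a large share), and 3 counts, taken as the least that can be read, came to 31.3 to 71.1 CPM. Mean depth was lower at day 1, though the difference did not pass after adjustment. The log2 total was 16.06 ± 0.23 (SD, n = 6) at the first sampling and 15.71 ± 0.30 at day 1 (exact permutation test within treatments, two-sided, p = 0.05, adjusted p = 0.0833 over 5 measures). The number of listed sequences with a count was 80.7 ± 2.73 against 75.3 ± 3.56 (p = 0.03 by the same exact test, adjusted p = 0.0833), and the share of counts in miR159c-3p was 33.1% ± 4.51 against 40.7% ± 6.05 (exact p = 0.05, adjusted p = 0.0833). The part of these depth measures in the results below was not tested. The second replicate of water at the first sampling had the lowest TMM factor of the 12 libraries (0.762) and 31323 CPM of miR166d-5p, where the other 2 replicates had 12485 and 11731. Results that move on leaving out this or another library are given with that value.

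Averaged over both treatments, 2 of the 57 tested miRs changed from the first sampling to day 1 at an adjusted p under 0.05 (3.51% of those tested; edgeR quasi-likelihood test). The higher one (1.75%) was miR166a-5p, and the lower one was miR164a-3p. Another 6 miRs reached an unadjusted p under 0.05, for 8 in all. The median log2 change of the 57 was 0.03, and the median size of a change was 0.34 in either direction. For 0 of the 57 (0%) did all 6 libraries of day 1 lie above, or all below, the 6 of the first sampling. Scaled to all sequencing tags instead, the median change was -0.34 and 4 miRs were called, 1 higher and 3 lower. The main fit estimated the spread from all 48 libraries. In a fit of only the 12 libraries compared, 0 were called (edgeR adjusted p = 0.102 for both miR166a-5p and miR164a-3p). That fit also had its own count filter and TMM factors, and took treatment and sampling as separate terms. Which of these changes moved the calls was not tested.

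miR166a-5p, the strand opposite the guide on the miR166a hairpin, rose. In water-injected plants its level was 74.5, 308 and 59.5 CPM in the 3 libraries of the first sampling and 424, 555 and 378 CPM at day 1, so that every day 1 library lay above every earlier one. In ethephon-injected plants the levels were 88.1, 10.4 and 133 CPM at the first sampling and 163, 92.5 and 403 CPM at day 1, and the groups overlapped. The counts behind these levels were small, from 1 to 16 in a library at the first sampling and from 6 to 28 at day 1, and the single count of ethephon replicate 2 lay under the floor. The averaged change was 1.61 on the log2 scale (SE 0.45, 95% interval 0.69 to 2.52, n = 6 against 6, edgeR adjusted p = 0.0289). It was 1.75 (SE 0.59) in water and 1.46 (SE 0.69) in ethephon, and neither treatment alone passed (edgeR adjusted p = 0.133 and 0.162). The call was lost without any 1 of 6 libraries, namely water replicates 1 and 3 and ethephon replicate 2 of the first sampling, and water replicates 2 and 3 and ethephon replicate 3 of day 1. Over the 12 fits that each left out 1 library, the log2 change stayed between 1.24 and 2.04 with edgeR adjusted p between 0.00398 and 0.186.

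miR164a-3p, the strand opposite the guide of a family that limits the CUP-SHAPED COTYLEDON genes of organ boundaries, fell. The 3 ethephon libraries of the first sampling held 387, 438 and 1125 CPM and those of day 1 held 325, 61.7 and 332 CPM. All day 1 libraries were thus below all earlier ones in this treatment, with 1 library of the first sampling well above the rest. In water the levels were 236, 76.9 and 250 CPM at the first sampling and 70.7, 99.1 and 56.7 CPM at day 1, and replicate 2 of the first sampling lay within the day 1 range. The averaged log2 change was -1.43 (SE 0.41, 95% interval -2.25 to -0.61, edgeR adjusted p = 0.0289), made up of -1.35 (SE 0.66) in water and -1.50 (SE 0.49) in ethephon. The call was lost without any 1 of 7 libraries: water replicates 1 and 3 and ethephon replicate 3 of the first sampling, and all 3 water replicates and ethephon replicate 2 of day 1. The log2 change over the 12 such fits stayed between -1.64 and -1.18 (edgeR adjusted p between 0.005 and 0.152). The guide strand miR164a-5p had a log2 change of -0.31 (edgeR adjusted p = 0.301).

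**Figure D1:**
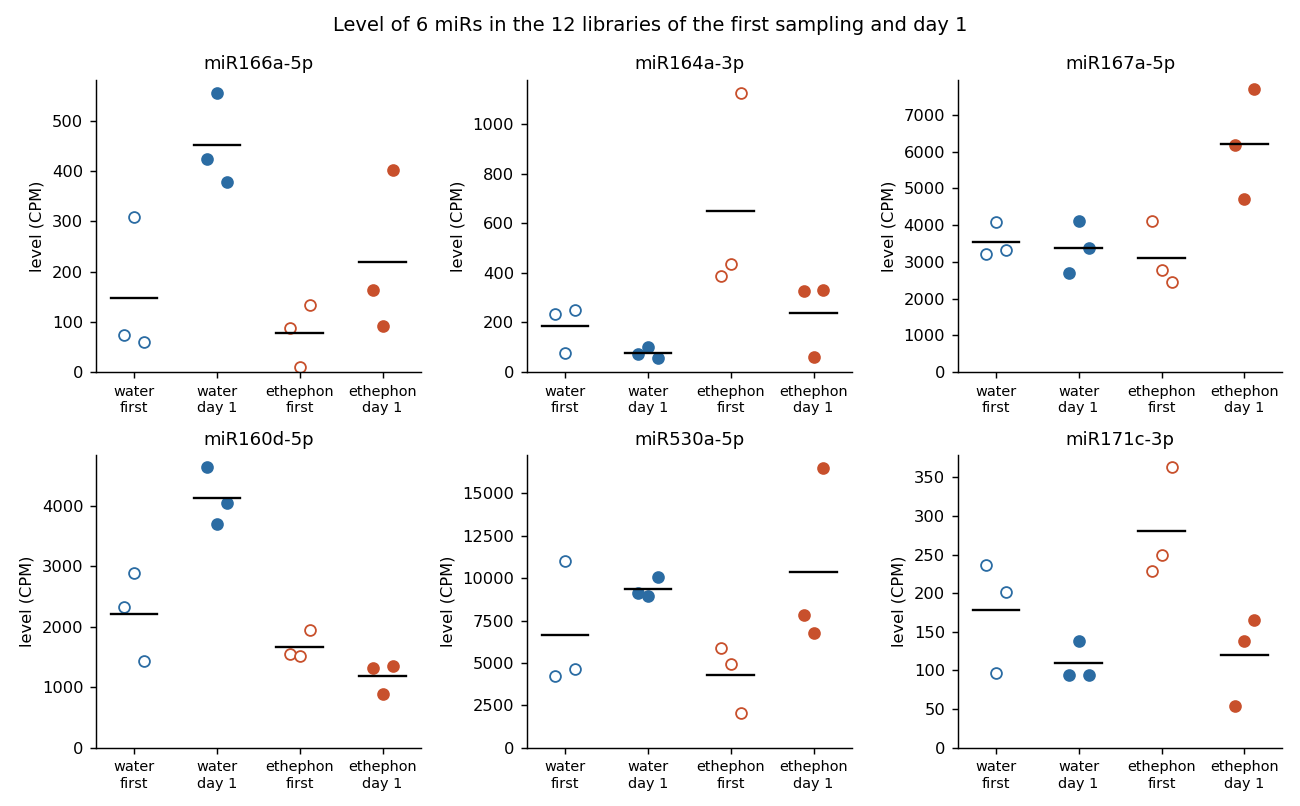
Level in CPM (vertical axis, linear from 0) of 6 miRs in the 12 libraries, by group (water in blue, ethephon in orange; open circles first sampling, filled circles day 1; black lines are means of 3 libraries). Means of miR166a-5p are higher at day 1 and those of miR164a-3p lower in both treatments, the day 1 libraries of miR167a-5p lie above the earlier ones with ethephon, and those of miR160d-5p lie above with water and below with ethephon.

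The miRs next in order of p were miR167a-5p and miR171c-3p (both at edgeR adjusted p = 0.0986), and neither passed on the average. miR167a-5p had a log2 change of 0.47 (SE 0.16). miR171c-3p, named here because of its p, was at 236, 96.1 and 202 CPM in water and 229, 250 and 363 CPM in ethephon at the first sampling, and at 94.3, 139 and 94.6 CPM and 54.2, 139 and 166 CPM at day 1. Its log2 change was -1.0 (SE 0.35). miR530a-5p, of a family that limits grain yield in rice, had a log2 change of 0.89 (SE 0.34, edgeR adjusted p = 0.139). Its levels were 4211, 11018 and 4664 CPM in water at the first sampling, so that replicate 2 alone reached the day 1 levels of 9146, 8974 and 10044 CPM. Without that library 4 miRs were called on the average, miR164a-3p, miR166a-5p, miR171c-3p and miR530a-5p. Without ethephon replicate 1 of the first sampling 3 were called, miR164a-3p, miR166a-5p and miR167a-5p. Without water replicates 1 or 3 of the first sampling or water replicates 2 or 3 of day 1, 0 were called, and 1 without any of ethephon replicates 2 and 3 of the first sampling, water replicate 1 of day 1, and ethephon replicates 2 and 3 of day 1.

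The same step was then read in each treatment. In water-injected plants 0 of 57 miRs passed (0%; edgeR), with 7 at an unadjusted p under 0.05, while DESeq2 called 1, miR160d-5p, and limma-voom 2, miR160d-5p and miR166a-5p. Without water replicate 2 of the first sampling edgeR called the same 2, and without any 1 of the 6 ethephon libraries it called miR160d-5p. In ethephon-injected plants 1 of 57 passed (1.75%), with 15 at an unadjusted p under 0.05. For 11 miRs (19.3% of 57) the 3 day 1 libraries of water did not overlap the 3 of the first sampling, 9 being higher and 2 lower. For ethephon this held for 15 miRs (26.3%), 6 higher and 9 lower. Water and ethephon libraries are separate, so the changes can be set side by side: 18 miRs had a positive log2 change in both treatments, 18 a negative one in both, and 21 went opposite ways. Over the 57 miRs the changes had a Pearson r of 0.31 and a Spearman rho of 0.28, which describes sequences measured in the same libraries and is no test.

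miR167a-5p, the guide of a family that acts on auxin response factors, was the miR that rose with ethephon. Its level went from 4104, 2771 and 2456 CPM at the first sampling to 6195, 4719 and 7701 CPM at day 1, and the groups did not overlap. In water it was 3218, 4096 and 3319 CPM and then 2687, 4121 and 3367 CPM, and the groups overlapped. The log2 change was 1.00 in ethephon (SE 0.23, edgeR adjusted p = 0.00483) and -0.06 in water (SE 0.23). The difference of these changes, 1.06 (SE 0.33, 95% interval 0.40 to 1.71), did not pass (edgeR adjusted p = 0.0643). Ethephon replicate 3 of the first sampling, the lowest library, carried the call: without it the log2 change was 0.76 and the edgeR adjusted p was 0.173, and 0 miRs were called in ethephon. Without water replicate 2 or ethephon replicates 1 or 2 of the first sampling 2 were called, miR164a-3p being added, and without ethephon replicate 3 of day 1 there were 3, with miR164a-5p as well. The calls in ethephon also hung on the scaling. With no composition factor 6 miRs were called and all 6 were lower at day 1, and on the scale of all sequencing tags 5 were called, all lower. miR167a-5p was in neither set, its log2 change being 0.67 and 0.64 (edgeR adjusted p = 0.0600 and 0.146), and miR164a-3p, miR164a-5p, miR160e-3p and miR396a-5p were in both.

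miR160d-5p was the 1 miR of 57 (1.75%) whose change differed between treatments. In water it was at 2323, 2884 and 1428 CPM at the first sampling and at 4644, 3705 and 4048 CPM at day 1, each day 1 library being above the earlier ones. In ethephon it was at 1550, 1521 and 1948 CPM and then at 1318, 895 and 1351 CPM, each day 1 library being below. The log2 change was 0.91 in water (SE 0.26, edgeR adjusted p = 0.0529) and -0.50 in ethephon (SE 0.27, edgeR adjusted p = 0.221), a difference of -1.41 (SE 0.37, 95% interval -2.15 to -0.67, edgeR adjusted p = 0.0231). The call for the difference was lost without water replicate 3 of the first sampling or water replicate 1 of day 1, and miR167a-5p joined it without water replicate 2 or ethephon replicate 2 of day 1 or ethephon replicate 1 of the first sampling. Over the 12 fits with 1 library left out the difference lay between -1.63 and -1.22 (edgeR adjusted p between 0.00451 and 0.135). For the near-identical miR160a-5p no difference was called: its levels in water were 4150 ± 503 (SD, n = 3) and 3856 ± 261 CPM, in ethephon 2104 ± 442 and 2614 ± 346 CPM, and the difference of its changes was 0.41 (edgeR adjusted p = 0.587).

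**Figure D2:**
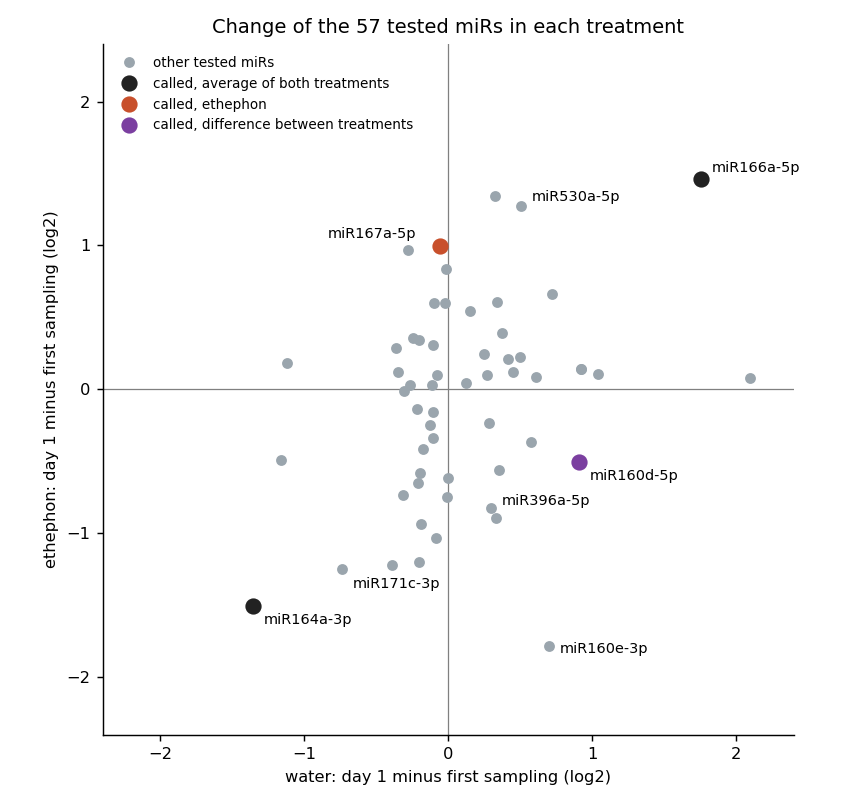
Log2 change from the first sampling to day 1 in water (horizontal) and in ethephon (vertical) for the 57 tested miRs, each point being 1 miR. Called miRs are coloured by the comparison that called them, with miR166a-5p (1.75 in water and 1.46 in ethephon) and miR164a-3p (-1.35 and -1.50) at the ends of the diagonal and miR160d-5p (0.91 and -0.50) off it.

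Counts were also summed over families, since members share targets and reads of near-identical members could be split. On the average of both treatments 0 of 23 families passed (0%; edgeR; 3 at an unadjusted p under 0.05, and 0 with DESeq2 or limma-voom), and 1 passed, lower, without ethephon replicate 3 of day 1. With ethephon 2 of 23 passed (8.7%), both higher. The miR167 sum was almost wholly miR167a-5p, the only member tested by itself. In all, miR167a-3p had 14 counts at the first sampling and 22 at day 1, and miR167b-3p 2 and 1. This family is therefore no separate measurement from miR167a-5p. The miR167 family had a log2 change of 1.11 (SE 0.23, edgeR adjusted p = 0.000343), which held without each library but ethephon replicate 3 of the first sampling (0.75, edgeR adjusted p = 0.0997), and was lost when scaled to all sequencing tags (0.64, edgeR adjusted p = 0.147). The miR530 family had a log2 change of 1.33 (SE 0.44, edgeR adjusted p = 0.0493), and its call was lost on leaving out any of the 12 libraries, with adjusted p between 0.068 and 0.470. The difference between treatments did not pass for miR167a-5p by itself, but was called for 1 family (4.35%), miR167, at 1.26 (SE 0.32, edgeR adjusted p = 0.00665). That call was lost without any 1 of 7 libraries (water replicates 1 and 2 and ethephon replicates 2 and 3 of the first sampling, and water replicates 1 and 3 and ethephon replicate 3 of day 1), down to 0.89 with adjusted p up to 0.210. It was also lost in 4 of 9 other settings: scaled to all tags (1.04, edgeR adjusted p = 0.413), with no composition factor (0.73, adjusted p = 0.209), with TMM factors taken without the most abundant family, miR159 (1.01, adjusted p = 0.15) and with only the libraries compared (0.90, adjusted p = 0.166).

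By role, the auxin families (miR160, miR167, miR390 and miR393, the latter acting on auxin receptors) had 10 tested members. On the average 0 of the 10 passed in either direction, 7 had positive changes and the median was 0.34, beside 0.03 over all 57. The 2 members of smallest p were miR167a-5p and miR160a-3p (0.84, edgeR adjusted p = 0.296). The summed level of the 10 ran from 9518 to 13018 CPM in water at the first sampling and from 12597 to 13868 CPM at day 1, and from 8271 to 9564 CPM and 9269 to 13743 CPM with ethephon. The 2 sequences miR393a-5p and miR393b-5p had equal counts in 12 of 12 libraries and are nested, so they are 1 measurement. It entered 2 times in the 10 members, the 7 positive changes, the median and the summed level.

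The families of boundaries, meristem and polarity (miR164, miR166, miR171 and miR394) had 19 tested members, which hold both miRs called on the average, 1 higher and 1 lower, where 3.51% of all 57 were called. Of the 19, 9 had positive and 10 negative changes, with a median of -0.11, beside 0.03 over all 57, and a range from -1.43 to 1.61. Their summed level was 153488 to 201072 CPM in water at the first sampling and 172811 to 181146 CPM at day 1, which lay within the earlier range. With ethephon it was 144830 to 183264 CPM and then 144218 to 185817 CPM, which passed the earlier range slightly at both ends.

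Of the age and phase families (miR156, miR157, miR172, miR529 and miR535), 22 sequences were listed, 14 had a count and 2 were tested, miR172a-3p and miR172b-3p. miR172a-3p was at 1642 ± 298 and 1533 ± 336 CPM in water and at 1390 ± 39.7 and 1244 ± 14.4 CPM in ethephon (SD, n = 3), an averaged log2 change of -0.13 (SE 0.18, edgeR adjusted p = 0.582). miR172b-3p had a log2 change of -0.56 (SE 0.42, edgeR adjusted p = 0.383) on 2 to 15 counts a library. The guides of miR156 were too scarce to test. miR156a-5p had 8 counts in all at the first sampling and 9 at day 1, miR156c-5p 10 and 4, and miR156b-5p 2 and 0. The other arms and miR529 were as scarce, with 9 and 8 counts for miR156a-3p, 3 and 0 for miR156b-3p, 3 and 0 for miR529a-3p, and 1 and 1 for miR529a-5p. The minor arms of miR172 had 26 and 15 counts (miR172a-5p), 14 and 11 (miR172c-5p) and 1 and 0 (miR172d-5p). These sequences were under the filter, so no test of them is given.

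The families that act on TCP and growth-regulating factors (miR319 and miR396) had 6 tested members, 0 of which passed, with a median log2 change of -0.11. miR159c-3p, also named miR319a-3p and miR319d-3p, was placed by its first name in the miR159 family. It is therefore not among the 6 or in the miR319 family sum. miR396a-5p was at 2062, 1481 and 2308 CPM and then 3111, 2041 and 2081 CPM in water, and at 2096, 1771 and 3098 CPM and then 1102, 1403 and 1422 CPM with ethephon. The ethephon libraries of day 1 lay below the earlier ones and the water libraries overlapped. Its log2 change was 0.30 (SE 0.29) in water and -0.83 (SE 0.30, edgeR adjusted p = 0.113) in ethephon, and the difference, -1.12 (SE 0.42), did not pass (edgeR adjusted p = 0.149). miR396b-5p changed by -0.70 on the average (SE 0.37, edgeR adjusted p = 0.296).

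The nutrition families (miR399, which keeps the phosphate regulator PHO2 down in Arabidopsis, and miR827, which acts on SPX-domain proteins) had 3 tested members, all with negative changes in both treatments and 0 called. The median of the 3 was -0.56 on the average. miR827a-3p was at 3367, 3153 and 2582 CPM and then 3324, 3427 and 1229 CPM in water, and at 9634, 7688 and 8023 CPM and then 5129, 4473 and 3649 CPM with ethephon. In ethephon all of its day 1 libraries were lower, yet still above those of water. Its log2 change was -0.93 in ethephon (SE 0.44, edgeR adjusted p = 0.162) and -0.56 on the average (SE 0.31, edgeR adjusted p = 0.296). miR827a-5p, the other strand, changed by -0.52 on the average (SE 0.31, edgeR adjusted p = 0.301).

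Of the other lists 0 members were called. The MYB-directed miR159 family had 5 tested members, miR159c-3p among them, and 0 called. All 5 were positive with ethephon (median 0.55) and 2 were positive with water (median -0.02). The copper families (miR408 and miR528) had 3 tested members and 0 called, with miR408a-3p at 0.58 (SE 0.55) and miR528a-5p at -0.28 (SE 0.33) on the average. The families that act on the miR machinery itself (miR162 on DICER-LIKE and miR168 on ARGONAUTE) had 3 tested members, 0 called and a median of -0.04, with miR168b-3p at 0.28 (SE 0.16). The lineage-limited families, which also count miR528, had 6 tested members and 0 called, with miR1863a-3 at 0.31 (SE 0.16) and miR7782a-5 at -0.22 (SE 0.19). No sequence of the miR families known to act on NBS-LRR resistance genes was among the 190.

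The 10 most abundant sequences held 94.6% of the counts in the 12 libraries, and 0 of them passed on the average. miR159c-3p, whose names place it in both the MYB-directed miR159 and the TCP-directed miR319 families, held 36.6%. It was at 340742 ± 110899 and 429751 ± 87278 CPM in water and at 290226 ± 66459 and 441443 ± 122752 CPM with ethephon (SD, n = 3), an averaged log2 change of 0.47 (SE 0.20, edgeR adjusted p = 0.242). miR159j-3p held 28.7%, and its level was 379255 ± 94359 and 294903 ± 45914 CPM in water and 210082 ± 21368 and 256687 ± 32589 CPM with ethephon. Its change was -0.04 (SE 0.17, 95% interval -0.37 to 0.30). miR166b-3p (11.1% of counts), the guide of miR166, changed by 0.08 (SE 0.13) and miR162a-3p (7.32%) by -0.12 (SE 0.11, 95% interval -0.34 to 0.10). Scaled to all sequencing tags instead, miR166b-3p had a change of -0.29 and miR159b-3p one of -0.07, so the sign of neither held. The changes of the other 6 were 0.35 (SE 0.19) for miR159a-3p, -0.18 (SE 0.12) for miR166a-3p, -0.11 (SE 0.20) for miR166d-5p, 0.29 (SE 0.17) for miR159b-3p, 0.89 for miR530a-5p and -0.04 (SE 0.13) for miR168a-5p. miR159b-3p is miR159a-3p without its last base, so reads of the pair are not independent sequences.

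A ratio of the 2 arms of a hairpin does not depend on how libraries are scaled. Of 21 pairs with both arms tested, 0 had a changed ratio at an adjusted p under 0.05 (exact permutation test within treatments, 400 arrangements, two-sided, smallest possible p = 0.005). Even at that smallest p, a lone changed pair could not pass after adjustment over 21 pairs. The 0 therefore says nothing about a change in 1 pair alone. By the same exact test 1 pair had an unadjusted p under 0.05. That pair was miR166a, whose log2 ratio of 3p to 5p was 8.36 ± 1.24 (SD, n = 6) at the first sampling and 6.37 ± 0.94 at day 1, a difference of -1.99 (exact p = 0.01, adjusted p = 0.21). In water the ratio was 8.38, 6.81 and 8.67 and then 5.87, 5.49 and 6.05, with no overlap. In ethephon it was 8.17, 10.51 and 7.61 and then 7.3, 7.78 and 5.70, with overlap. The guide strand miR166a-3p, with a log2 change of -0.18 (95% interval -0.43 to 0.07), was at 29743 ± 5116 and 25520 ± 181 CPM in water and 25933 ± 2792 and 23536 ± 2994 CPM with ethephon (SD, n = 3). For miR164a the ratio differed by -0.97 (exact p = 0.08, adjusted p = 0.56). The 21 pairs held 18 distinct 5p and 20 distinct 3p sequences, so some pairs shared an arm. A sequence with several names could pool reads of several hairpins, so not every ratio is of 1 hairpin alone.

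Another 55 sequences had counts in these libraries but were under the filter. They held 350 counts at the first sampling and 241 at day 1, which was 0.0843% and 0.0735% of all counts. The largest was miR535a-5p, with 39 and 19 counts. 14 of the 55 were seen at the first sampling alone and 9 at day 1 alone, and 23 had at most 3 counts in the 12 libraries. The remaining 78 listed sequences had 0 counts in all 12.

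To place the step within the series, the 36 libraries of days 2 to 8 were compared with each side. These comparisons share libraries with the main one, so the values are given side by side only. Against the first sampling 22 of 57 miRs differed (38.6%; edgeR), 8 higher and 14 lower on the later days, and against day 1 12 of 57 differed (21.1%), 3 higher and 9 lower. On the scale of all tags the split was 5 higher and 18 lower against the first sampling and 3 and 3 against day 1. With RLE factors (relative log expression) it was 7 higher and 9 lower against day 1. Without water replicate 1 of day 1, 3 miRs differed from day 1, miR160d-5p, miR167a-5p and miR171f-3p. Of families, 6 of 23 differed between days 2 to 8 and the first sampling (26.1%).

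Day 1 held different places in these courses. miR167a-5p was at 3544 ± 480 and 3392 ± 717 CPM in water at the first sampling and day 1, then reached 11773 ± 1553, 14083 ± 2405 and 11628 ± 1948 CPM on days 2, 3 and 4 and was at 5280 ± 1032 CPM on day 5 (SD, n = 3). With ethephon it went from 3110 ± 875 through 6205 ± 1491 to 10442 ± 1145, 14089 ± 1033 and 12593 ± 1394 CPM, and was at 6017 ± 1004 CPM on day 5. In both treatments the means were thus highest on day 3, and at day 1 the ethephon mean was the higher one. The log2 change averaged over treatments was 1.35 for days 2 to 8 against the first sampling and 0.88 against day 1 (edgeR adjusted p = 4.84e-11 and 9.23e-07). miR160d-5p in water had its highest mean at day 1, with 4132 ± 475 CPM after 2212 ± 735 CPM at the first sampling and before 1360 ± 325 CPM on day 2, while with ethephon it went from 1673 ± 239 through 1188 ± 255 to 964 ± 289 CPM. Its log2 change was -0.94 against the first sampling and -1.14 against day 1. miR166a-5p differed on the later days from day 1 (-0.97, edgeR adjusted p = 0.0228), while its difference from the first sampling was 0.64 (edgeR adjusted p = 0.197). miR164a-3p differed from the first sampling (-0.98, edgeR adjusted p = 0.00362) and its difference from day 1 was 0.45 (edgeR adjusted p = 0.40).

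**Figure D3:**
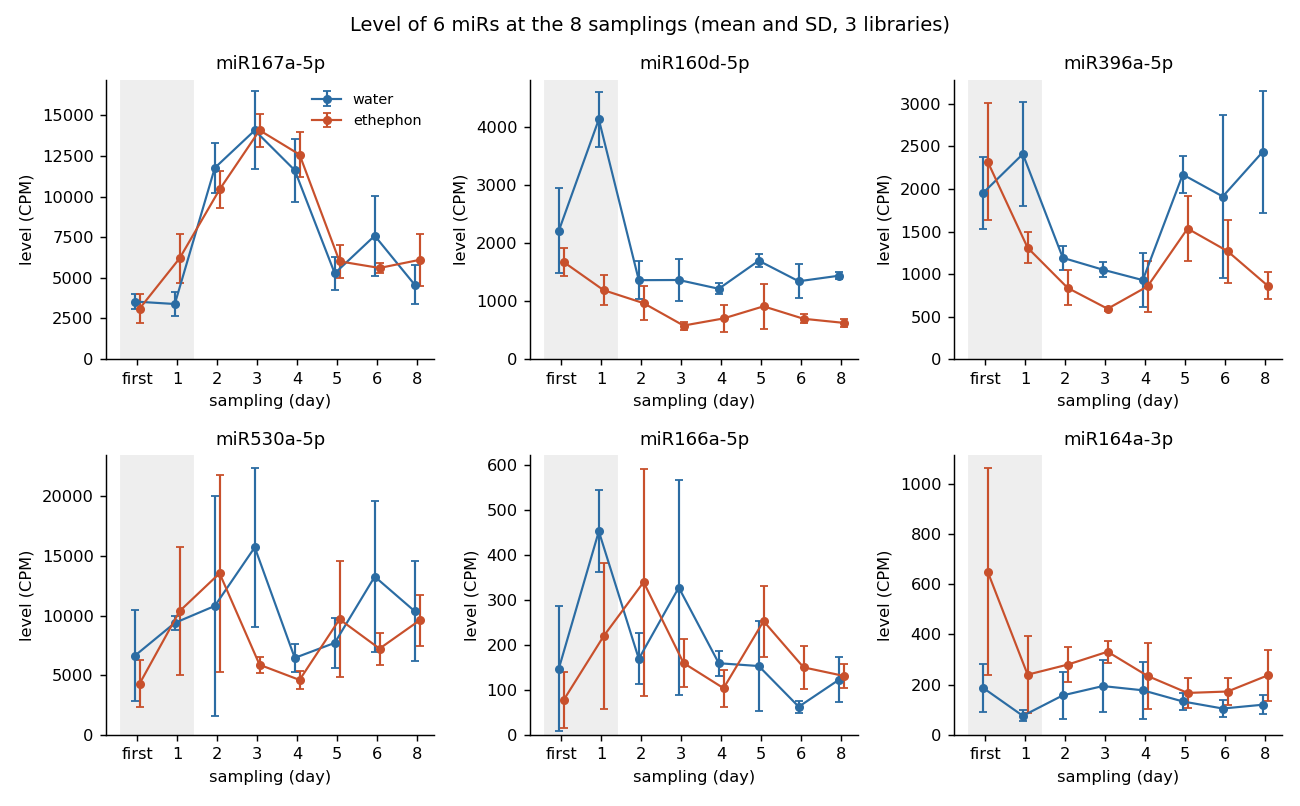
Level in CPM (vertical axis, linear from 0, mean and SD of 3 libraries) of 6 miRs at the 8 samplings, with water in blue and ethephon in orange and the first sampling and day 1 shaded. miR167a-5p has its highest means on day 3, 14083 CPM in water and 14089 CPM in ethephon, and miR160d-5p in water is highest at day 1 (4132 CPM).

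Among the 7 steps between neighbouring samplings, averaged over treatments, the step to day 1 was not the one with most calls. The step from day 1 to day 2 had 6 of 57 (10.5%), miR160d-5p, miR171a-3p, miR396a-5p and miR396b-5p lower and miR167a-5p and miR171c-3p higher, and the step from day 4 to day 5 had 13 (22.8%), 8 higher and 5 lower. Each of the other 4 steps had 0 (edgeR; 2 to 7 at an unadjusted p under 0.05). The step from day 4 to day 5 took in miR167a-5p, which fell by 1.1 on the log2 scale, and miR396a-5p, which rose by 1.02.

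**Figure D4:**
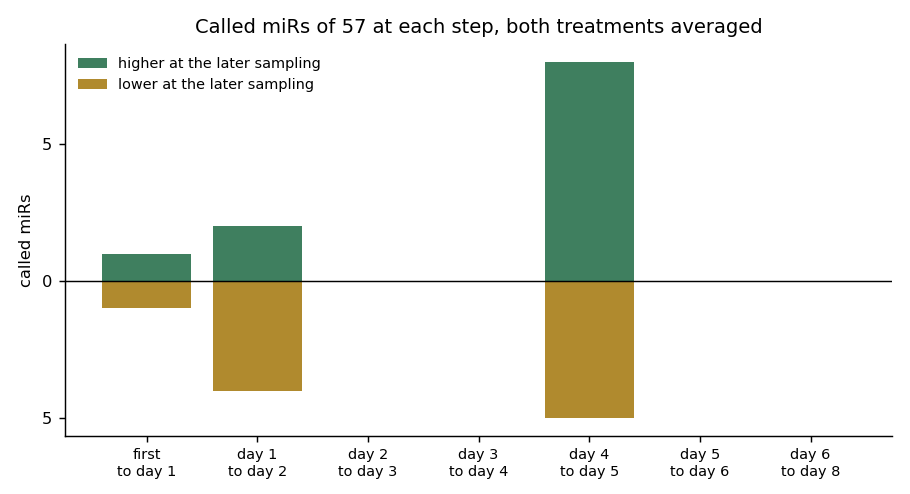
Number of miRs of 57 called at each step between neighbouring samplings (both treatments averaged), with miRs higher at the later sampling above the zero line and lower ones below it. The step from the first sampling to day 1 has 1 of each, day 1 to day 2 has 2 and 4, and day 4 to day 5 has 8 and 5.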

How the data were processed

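Small RNA libraries (NEBNext kit, 50 nt reads) had been made from total RNA of the apices. The authors removed adapters, collapsed identical reads and aligned the unique sequences to mature miRs of miRBase version 22. They deposited raw counts per listed sequence and, beside these, a score (reads scaled to a fixed number of the library's tags, rounded), from which the tags of each library were recovered. A deposited list of another kind holds no measurement, only 190 sequences and 253 miR names. The aligner, mismatches allowed and genome positions were not given in the sources used here.

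edgeR 4.0.16, run in R 4.3.3, was used for the counts. Its filterByExpr function (minimum count 10, minimum total 15, 16 groups) kept 57 sequences, and a quasi-likelihood model with 1 mean per group was fitted to all 48 libraries, which share the spread (common coefficient of variation 0.246). P-values were adjusted over all tested sequences by Benjamini and Hochberg, with 0.05 as threshold. The authors call the replicates biological. Replicate pairs of a group differed by more than sampling noise (chi-square per degree of freedom 7.28 to 72.7), so none was counted as a repeat. Intervals and floors cover counting error or the spread between libraries only, since reads carried no molecular identifiers. The code was tested on simulated data.

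Named were the miRs called, the 10 most abundant, the miR156, miR157, miR529 and miR172 sequences, the 2 members of smallest p of each of 10 family lists, families called, and the arm pair of smallest p. Other names were chosen after their values were seen and are given as such or with their counts. The comparison and the lists were chosen with earlier results of these data known. Alternatives were other scalings (RLE, none, all tags, TMM without the most abundant miR), no filter, DESeq2 1.42.0, limma-voom (limma 3.58.1), only the libraries compared, a replicate block, and leaving out each library. For the families called with ethephon or for the difference between treatments, the alternatives were added after seeing the data.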

Additional observations from a re-analysis of the deposited data

Results flagged for a closer look

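miR160d-5p stood out because its change from the first sampling to day 1 differed between the treatments, by -1.41 on the log2 scale (ethephon minus water, edgeR adjusted p = 0.0231), with every day 1 library above the earlier ones in water and below them in ethephon.

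miR160e-3p, which comes from a hairpin name that shares the miR160d-5p sequence, stood out because its libraries moved apart in the same opposite ways. Its levels were 87.0, 76.9 and 107 CPM and then 118, 158 and 170 CPM in water, and 176, 188 and 157 CPM and then 90.3, 30.8 and 23.7 CPM in ethephon. The difference of the changes was -2.48 (SE 0.91, 95% interval -4.32 to -0.64) and did not pass (edgeR adjusted p = 0.149), on a mean of 7.58 counts a library. Ethephon replicates 2 and 3 of day 1 held 2 and 1 counts, which lay under the floor of 3 counts. The causes were not tested.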

How the results depend on the processing

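The called miRs and families kept their direction under each alternative run, while 10 results that were not called changed sign in 16 instances. On the scale of all tags the averaged log2 change was -0.16 for miR160d-5p, -0.080 for miR168b-3p, -0.039 for miR1863a-3, -0.29 for miR166b-3p and -0.072 for miR159b-3p, and with no composition factor it was -0.10 for miR166b-3p. On leaving out 1 library the averaged change ran from -0.13 to 0.01 for miR159j-3p (without water replicate 2 of the first sampling 0.0137), from -0.25 to 0.13 for miR166d-5p and from -0.16 to 0.01 for miR168a-5p (without ethephon replicate 2 of the first sampling 0.00731). The difference between treatments ran from -0.50 to 0.43 for miR164a-3p and from -1.24 to 0.43 for miR166a-5p. In ethephon the calls went from 1 higher and 0 lower to lower ones only with no composition factor and on the scale of all tags, with other miRs called. On the average of both treatments, 2 miRs became 4 on the scale of all tags (1 higher, 3 lower) and 4 without a filter, 1 with limma-voom and 0 with only the libraries compared, and leaving out 1 library gave 0 to 4. In water, 0 became 1 with TMM without the most abundant miR, 1 with DESeq2, 2 with limma-voom and 1 with only the libraries compared, and leaving out 1 library gave 0 to 2. In ethephon, 1 became 6 where composition was left uncorrected, 5 when scaled to all tags, 5 without a filter, 2 with limma-voom and 0 with only the libraries compared (0 to 3 on leaving out 1 library). For the difference between treatments, 1 became 2 with RLE factors and 2 with DESeq2 (0 to 2). Days 2 to 8 gave 6 against day 1 on the scale of all tags (3 to 13 on leaving out 1 library) and 15 to 23 against the first sampling. Families called on the average were 2, both lower, on the scale of all tags (0 to 1 on leaving out 1 library), and changed arm ratios stayed at 0 (0 to 0). The count of arm ratios could not have been raised by 1 changed pair alone, given the smallest possible p. With only the libraries compared, the edgeR adjusted p was 0.102 for miR166a-5p and miR164a-3p and 0.0670 for miR167a-5p in ethephon. limma-voom gave 0.0741 for miR164a-3p.

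Correlations between same-numbered replicates were weak (2 of 6 over 0.1, from -0.16 to 0.28, and 2 of 6 libraries correlating best with their own number). So few values cannot tell whether the numbers pair the samples, and whether a number stands for a field replication was not stated. The main fit used no pairing. With the replicate number as a replicate block, 2 miRs were called on the average, 0 in water, 1 in ethephon and 1 for the difference, and 0 families. Only the miR530 family in ethephon lost its call (edgeR adjusted p = 0.0528).

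Limits: day 1 libraries were shallower on average, 13 of the 57 tested sequences had a mean under 10 counts, and both miRs called on the average rested on few counts.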

Other observations

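miR171a-3p and miR171c-3p, of the family that acts on GRAS factors of the meristem, went opposite ways at several steps. These were chosen after their values were seen. From the first sampling to day 1 their averaged log2 changes were 0.69 and -1.0 (edgeR adjusted p = 0.296 and 0.0986, neither called). From day 1 to day 2 they were -1.32 and 1.3 (edgeR adjusted p = 0.0152 and 0.0102), and from day 4 to day 5 they were 1.42 and -1.09 (edgeR adjusted p = 0.00165 and 0.0281). Of the sequences that share the seed of miR171a-3p, miR171b-3p had log2 changes of 0.18, 0.47 and -0.90 at these steps (edgeR adjusted p = 0.556, 0.193 and 0.00197). miR171d-3p had 0.03, -0.13 and 0.59 (edgeR adjusted p = 0.928, 0.788 and 0.0453), and miR171f-3p had 0.38, -0.43 and 0.04 (edgeR adjusted p = 0.296, 0.193 and 0.896). miR171g-3p, which shares the seed of miR171c-3p, had -0.83, 1.49 and -0.85 (edgeR adjusted p = 0.351, 0.0677 and 0.176). In water, miR171a-3p was at 165 ± 10.2, 274 ± 56.4 and 141 ± 47.7 CPM at the first sampling, day 1 and day 2 (SD, n = 3), and miR171c-3p at 178 ± 73.0, 109 ± 25.5 and 206 ± 56.3 CPM. Both had few counts (3 to 30 a library at the first sampling and day 1), neighbouring steps share libraries, and the cause was not tested.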
